A study of Mus musculus with 4 samples.

Results

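Acetylated chromatin was examined at 7 genes of cell cycle entry and DNA replication in mouse liver: Ccnd1, Cdk2, E2f1, E2f2, Cdt1, Mcm10 and Pola2. They were taken by name, and every listed region within 100 kb of each gene's transcription start site (TSS) was included. They are 7 of 10925 gene names, 7090 of them protein-coding, for which the deposited tables list a TSS. Acetylation of histone H3 at lysine 27 (H3K27ac), found at active promoters and enhancers, was mapped by CUT&Tag, in which an antibody guides a transposase to the mark, in liver of wild-type C57/BL6J mice, with 2 libraries from sham-operated animals and 2 libraries taken 12 h after a 70% partial hepatectomy (PHx). Sham libraries carry no time label, the design text speaks of 0 h, and the age of the animals is not given in the sources used here. They do not say which animals the 2 libraries of a group came from. Liver was taken whole, so a mark in few cells and a weak mark in many cells cannot be told apart.

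In a quiescent cell the retinoblastoma protein holds E2F factors inactive. Mitogens raise cyclin D1, which with its kinase partners starts to phosphorylate that protein, and cyclin E with CDK2 completes the step. Freed E2F factors then drive genes for origin licensing, for unwinding and for DNA synthesis. Hepatocytes of the adult liver rest outside the cycle and enter it after hepatectomy, and Ccnd1 is the classic marker of their passage through G1.

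The data are 2 lists of regions on GRCm39, each merged over the libraries of a group and without signal values. Depth is unknown, no replicate error can be had and no test was made. The sham list held 11602 regions with a median width of 8.15 kb, and the PHx list held 10170 with a median of 14.6 kb. PHx regions were thus wider across the genome, which touches every width below. Markers were read the same way. Of 6 hepatocyte genes 5 carried a promoter region in sham and after PHx, and Cps1 after PHx only. Among 5 endothelial markers whose TSS is listed, 4 had one after PHx only, as did Csf1r of macrophages and Colec11 of stellate cells. Over all protein-coding genes with a listed TSS the share with one after PHx only was 15.4%. No TSS was listed for 5 of 6 stellate, 3 of 4 cholangiocyte and 2 of 5 macrophage markers. Cd68 and C1qa of macrophages and Sox9 of cholangiocytes had one in sham as well as after PHx. No T cell, B cell or neutrophil marker had a listed TSS. Of 4 proliferation markers, Mki67, Top2a and Ccnb1 had no listed TSS. The fourth, Cdk1, carried a promoter region in sham (15216 bp) and after PHx (15278 bp). Of 4 genes of other tissues, taken as a negative check, 3 had no listed TSS. Snap25 was listed, and its promoter was free of regions in sham and after PHx. The part of cell composition in the results below was not tested.

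Most of these genes carry short E2F-like words near their start, which are shown because E2F factors act through them. RefSeq promoter windows (GRCm38.p6, from 250 bases before to 50 after a start) were found for 6 of the 7 genes by symbol, and Ccnd1 had no entry. The core word was TTTGGCG. The consensus words were TTTCCCGC, TTTCGCGC, TTTGCCGC and TTTGGCGC, the last of which contains the core word. Both strands were searched. The stretches of 30 bases around the matches, 5′ to 3′ along the gene with the matched words in capitals, were as follows.
E2f2, chr4:136172294-136172323, plus strand: cgaaTTTGGCGgcatatagTTTGGCGCtaa
Cdt1, chr8:122568035-122568064, plus strand: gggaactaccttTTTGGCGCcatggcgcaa
Mcm10, chr2:5012742-5012771, minus strand: ttgggcggagcccaatttagtttTTTGGCG
Pola2, chr19:5964157-5964186, minus strand: gcgcgctaggcaaagcgTTTGGCGggtttt
Cdk2, chr10:128705173-128705202, minus strand: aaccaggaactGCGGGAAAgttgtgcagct
In Cdk2 the capitals are the reverse complement of TTTCCCGC. These coordinates belong to GRCm38.p6 and not to the build of the regions.

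At E2f2, Cdt1, Mcm10 and Pola2 the matches lay 24 to 49 bases after the RefSeq start, and at Cdk2 140 bases before it. The window of E2f1 and a downstream window of E2f2 held none of these letters, which says nothing about the factor. A core or consensus word was present in 5 of 6 genes here, in 38.0% of the 71 other G1/S and replication genes with a window, and in 3.73% of all 27025 genes. A match is a description and not a site of binding. The 5 genes with a match fell in all 4 promoter states described next. Among all protein-coding genes the share with a word was 5.95% where both groups had a promoter region, 5.74% where PHx alone had one, 6.85% where sham alone had one and 4.77% where neither did.

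A promoter counted as marked where any listed region touched the window of 1 kb on either side of the TSS. Ccnd1, E2f2 and Cdt1 were marked in both groups, Cdk2 after PHx only, E2f1 and Pola2 in sham only, and Mcm10 in neither. Over all protein-coding genes, promoters marked in both groups made up 66.0%, those marked after PHx alone 15.4%, those marked in sham alone 9.79% and unmarked ones 8.79%. With 7 genes, these counts are too small to be set apart from those shares. The states of the 7 were the same with the TSS itself, with TSS ± 3 kb, with every listed start and without regions below the lower quartile of width. The authors name 1 gene per region, and by that assignment 8 sham regions and 1 PHx region carried the name of one of the 7 genes. That PHx region was named for Cdk2, whose TSS is thus listed through PHx alone. The TSSs of the others are listed through sham regions alone. Regions over Ccnd1, E2f2 and Cdt1 after PHx were named for neighbours, so a search by gene name misses them.

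**Figure D1:**
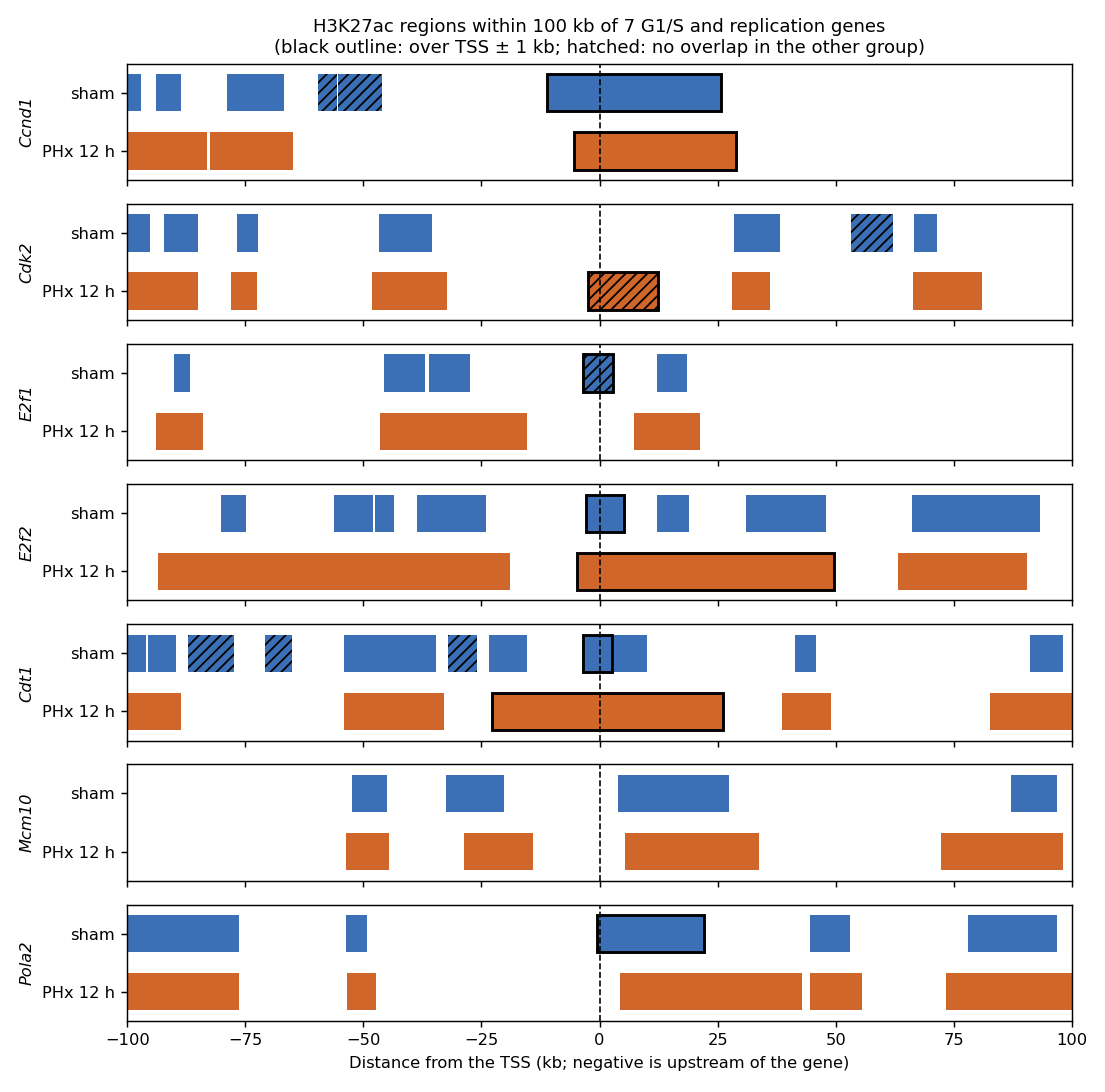
Regions within 100 kb of each TSS, in kb along the gene (negative is upstream), with sham above and PHx 12 h below; black outlines mark regions over TSS ± 1 kb and hatching marks regions with no overlap in the other group. The 46 sham regions are more numerous and narrower than the 29 PHx regions, and the PHx regions at E2f2 and Cdt1 each span 3 sham regions.

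Ccnd1, which encodes cyclin D1, had a broad promoter region in both groups. On chromosome 7 it ran from 144467892 to 144504652 in sham (36761 bp) and from 144464740 to 144499052 after PHx (34313 bp). The width ratio, PHx over sham, was 0.933. Of the 4682 protein-coding genes marked in both groups 8.63% had a narrower region after PHx, and the median ratio of all 4682 was 1.72 (quartiles 1.24 and 2.71). Both regions covered the whole transcript and the TSS of Bc1, a small non-coding RNA gene 25361 bp downstream, after which the authors named both. After PHx the region lay farther downstream. It reached 11084 bp upstream of the TSS in sham and 5484 bp after PHx, while the downstream reach was 25676 bp and 28828 bp. In sham it was joined from 2 peaks of library 1 and 3 of library 2, and after PHx from 2 and 1.

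Upstream of Ccnd1 the sham list held 5 distal regions, which reach no listed TSS ± 3 kb, and 2 of them had no overlap after PHx. These were the 2 nearest to the gene, and the authors assigned both to it. The first spanned 9289 bp (chromosome 7, 144539672 to 144548960), from 46104 to 55392 bp upstream of the TSS. The second spanned 3918 bp (144549164 to 144553081), from 55596 to 59513 bp upstream. Across the sham list 18.6% of 3738 distal regions had no overlap after PHx. The 2 regions lie side by side and come from 1 locus, so they are not separate cases beside that share. The PHx list had a single stretch of 59334 bp without a region over both. Within each library the peak numbers rise along the genome. Numbers missing between neighbouring regions are therefore read here as peaks of that library that were joined into no region. Peaks of single libraries are not given, so this reading could not be checked. At least 26.7% and 28.6% of the numbers of sham libraries 1 and 2, as the tables number them, were unused in this sense, and 12.4% and 21.2% of those of the PHx libraries. In that stretch library 1 of PHx had 1 such unused number and library 2 had 0. On that reading at most 1 PHx library had a peak in the stretch, at a place that is not known.

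Farther upstream of Ccnd1 the groups shared their regions. A sham region of 12152 bp began 66808 bp upstream, and a PHx region of 17634 bp lay over it. Sham regions of 5380 bp and 15549 bp, 88541 and 96988 bp upstream, fell inside a PHx region of 52273 bp that reached the TSS of Gm46023. Within 100 kb of the Ccnd1 TSS regions covered 70.5 kb in sham and 68.8 kb after PHx, a ratio of 0.975. At this distance it was the only one of the 7 genes below 1, and the others ranged from 1.305 at Cdt1 to 1.707 at E2f2. Over 6808 protein-coding genes with some coverage in sham the median ratio was 1.48 (quartiles 1.19 and 1.96). Within 10 kb of the TSS the ratio was below 1 at 4 of the 7 genes. It was 0.444 at E2f1, 0.5325 at Pola2, 0.759 at Mcm10 and 0.774 at Ccnd1. Sham regions filled all 20001 bp of that window at Ccnd1, so its ratio could not pass 1. E2f1 and Pola2 had a promoter region in sham only, which enters their ratios. The share of all genes below 1 was not counted, so the 4 genes cannot be set against it. Cdk2 had no sham coverage within 10 kb. The median over genes marked in both groups was 1.33 (quartiles 1.09 and 1.71). E2f1, Pola2, Mcm10 and Cdk2 lie outside that set, so of the genes below 1 it serves as a reference for Ccnd1 alone.

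**Figure D2:**
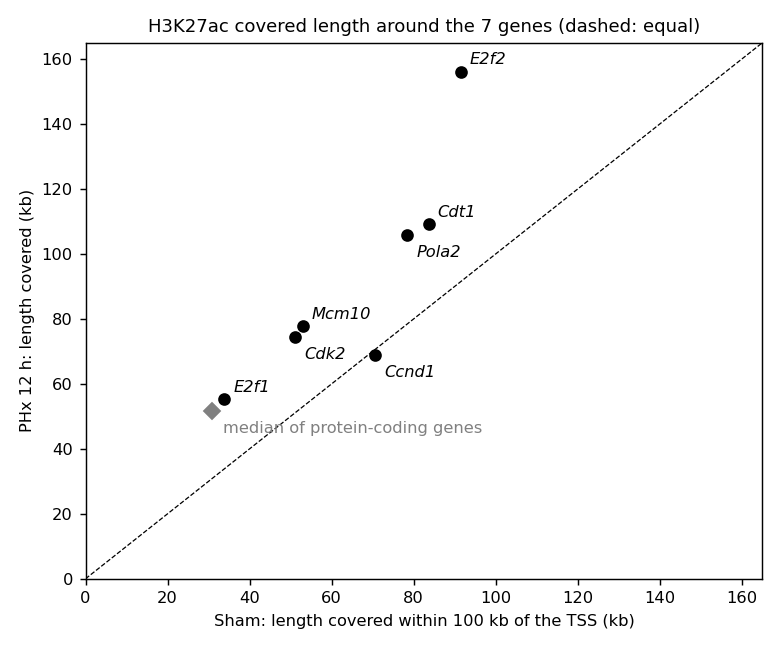
Length covered by regions within 100 kb of each TSS, in kb, with sham on the horizontal and PHx 12 h on the vertical axis; the grey diamond is the median of protein-coding genes and the dashed line marks equal lengths. Ccnd1 lies just below the line (70.5 and 68.8 kb), and the other 6 genes lie above it.

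Cdk2, the kinase partner of cyclins E and A, had a region after PHx only. It spanned 14988 bp on chromosome 10 (128528050 to 128543037), reached 2553 bp upstream and 12434 bp downstream of the TSS, and covered the whole transcript. No sham region overlapped any part of it, and the nearest ended 28402 bp from the TSS. Among the 1091 protein-coding genes marked in PHx only, the median distance to the nearest sham region was 23040 bp (quartiles 7144 and 80992 bp). The sham stretch at Cdk2 was 63797 bp long and held 0 unused peak numbers of library 1 and 2 of library 2. Peaks of sham library 2 may thus lie at Cdk2 without being listed. Of the PHx-only genes 10.2% lay in stretches without an unused sham number, and Cdk2 was not among them. Of the 29 PHx regions in the 7 windows it was the single one with no overlap in sham, against 22.5% of the whole PHx list. Sham regions covered 33.8 kb (E2f1) to 91.5 kb (E2f2) of these windows, above the median of 30.9 kb over protein-coding genes. The part of that coverage in the overlap was not tested.

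The flanks of Cdk2 held regions of both groups. Those at Ikzf4 (9741 bp in sham, 8073 bp after PHx), Dgka (11293 and 16081 bp) and an upstream distal region near Mmp19 (4333 and 5538 bp) were found in both lists. A sham region of 8906 bp over Gm26876, 53328 bp downstream, had no overlap after PHx and lay in a stretch with 0 unused numbers of either PHx library.

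The genes for the activator E2F factors differed from each other. E2f1 was marked in sham only, by a region of 6312 bp on chromosome 2 (154408524 to 154414835) that reached 3489 bp upstream and 2822 bp downstream. The nearest PHx region ended 7199 bp downstream of the TSS, over the last part of the gene, and the next began 15259 bp upstream. A PHx region as near was found at 13.4% of the 694 sham-only genes. The transcript span was covered to 28.2% in both groups, in sham from the promoter and after PHx from the other end. Library 2 of PHx had 1 unused peak number in the stretch of 22457 bp around the E2f1 TSS and library 1 had 0. A PHx peak at E2f1 in library 2 would not be listed, so the absence there holds for the merged list.

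E2f2 was marked in both groups, by 8151 bp in sham (chromosome 4, 135896640 to 135904790) and 54447 bp after PHx (135894821 to 135949267), a ratio of 6.68. A ratio as high was found at 3.63% of the genes marked in both groups, and 40.0% had a ratio of at least 2. The PHx region ran 49682 bp downstream of the TSS, through the whole transcript and past the TSS of Asap3, which lies 34077 bp downstream. It covered 3 sham regions: the E2f2 promoter, a region of 6758 bp within the gene, and one of 16991 bp at Asap3. Those 3 regions summed to 31.9 kb, so the PHx length was 1.71 times the sham length inside it. By that measure E2f2 lay within the quartiles of the genes marked in both groups, 1.19 and 1.87 around a median of 1.44. The reach upstream of E2f2 was 2945 bp in sham and 4764 bp after PHx.

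Upstream of E2f2 a PHx region of 74417 bp, named for Gm42329, lay over 4 sham regions of 4093 to 14677 bp, 3 of them distal. Each PHx library had 1 peak there. Within 100 kb of the E2f2 TSS regions covered 91.5 kb in sham and 156.1 kb after PHx, the longest coverage of the 7 windows in both groups. No region in this window was found in 1 group only.

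Licensing and replication genes followed 3 different patterns. Cdt1, which loads the MCM helicase at origins with Cdc6, was marked in both groups by 6263 bp in sham (chromosome 8, 123291206 to 123297468) and 48849 bp after PHx (123272008 to 123320856). The ratio of 7.80 was reached at 2.37% of genes marked in both groups. The PHx region also held the TSSs of Piezo1, 16686 bp upstream, and Aprt, 8892 bp downstream, each of which had its own sham region, of 8040 and 7014 bp. Sham regions filled 20.6 kb of the PHx region, a ratio of 2.38. The upper quartile of that measure over the genes marked in both groups was 1.87. Of all genes marked in both groups 9.01% had a PHx region over 3 or more sham regions. E2f2 and Cdt1 were 2 of the 3 genes here that were marked in both, a count too small to be set apart from that share.

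The joins at E2f2 and Cdt1 were not alike in the 2 PHx libraries. The PHx region at Cdt1 was made of 1 peak of library 1 and 4 peaks of library 2, and that at E2f2 of 1 and 2 peaks. Several peaks of library 2 thus shared 1 region with a single peak of library 1. The same make-up was found at 59.0% of the 422 genes whose PHx region lay over 3 or more sham regions. The extent of the library 1 peak is not given, so whether it made the join was not tested.

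Upstream of Cdt1, sham regions of 9789, 5632 and 6008 bp over Piezo1, which encodes a mechanically gated ion channel, had no overlap after PHx. They lay in 2 PHx stretches, of 34482 and 10091 bp, with 0 unused peak numbers of either library. In all windows 7 of the 46 sham regions had no PHx overlap, a share near the 14.0% of the whole sham list. Of those 7, 4 lay in such stretches, the 3 at Piezo1 and the 1 at Gm26876. Over the whole sham list 16.9% of regions without a PHx overlap did. The 4 regions come from 2 loci.

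Pola2, the B subunit of the DNA polymerase alpha and primase complex, was marked in sham only by 22777 bp on chromosome 19 (5992092 to 6014868). That region lay almost wholly within the gene, with 22142 bp downstream of the TSS and 634 bp upstream. After PHx a region of 38455 bp named for Cdc42ep2 came within 4338 bp of the TSS from the downstream side and covered 78.2% of the sham region. Of the sham-only genes 7.93% had a PHx region as near, and the median distance of all 694 was 34630 bp. The transcript span was covered to 93.6% in sham and 81.7% after PHx. The promoter end itself had 0 unused peak numbers of either PHx library in a stretch of 51712 bp, which was the case for 14.5% of sham-only genes. After PHx most of the Pola2 body was thus still inside a region, and the first 4338 bp and the start were not.

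Mcm10, which helps activate the helicase and brings polymerase alpha to the fork, had a region over its body and none over its promoter in either group. The sham region of 23625 bp began 3818 bp downstream of the TSS, and the PHx region of 28389 bp began 5306 bp downstream. They covered 82.3% and 75.5% of the transcript span. The authors annotated the sham region to Mcm10 and the PHx region to Ucma, though the 2 overlap. Of 7090 protein-coding genes 3 (0.0423%) had at least 70% of the span covered in both groups and a promoter marked in neither. The others were Iqsec1 and Sectm1b, and this combination was chosen after the values were seen. Library 2 of each group had 1 unused peak number in the stretch at the Mcm10 start and library 1 had 0. Whether those numbers stand for peaks at the promoter is not known.

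**Figure D3:**
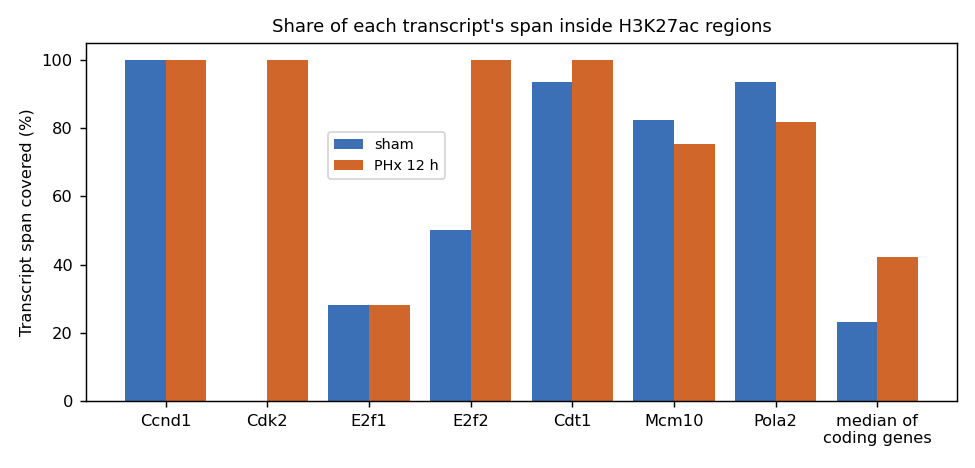
Percent of each gene's listed transcript span that lies inside a region, in sham and PHx 12 h, with the median of protein-coding genes at the right. Ccnd1, Cdt1, Mcm10 and Pola2 are covered over 75% or more of their span in both groups, and Cdk2 is at 0 in sham and 100% after PHx.

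**Figure D4:**
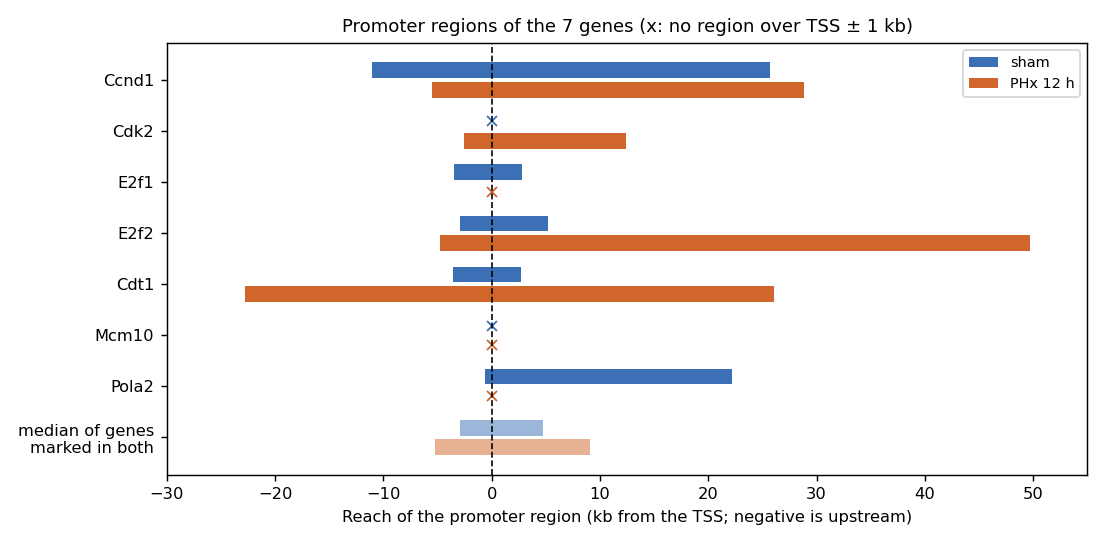
Reach of the promoter region upstream (negative) and downstream of each TSS, in kb, with crosses where no region overlapped TSS ± 1 kb and the median reach of genes marked in both groups at the bottom. E2f2 and Cdt1 show the widest PHx regions and Ccnd1 is nearly as wide in both groups.

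Most member regions reached farther downstream than upstream of the TSS, and the genome did too. The median reach of genes marked in both groups was 2900 bp upstream and 4770 bp downstream in sham, and 5214 and 9044 bp after PHx. In sham E2f1 and Cdt1 reached farther upstream than downstream. The transcript span was covered to a median of 23.2% in sham and 42.4% after PHx over all protein-coding genes. In sham 6 of the 7 genes lay above that median and Cdk2 was at 0; after PHx 6 lay above it and E2f1, at 28.2%, below.

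Of all regions in the 7 windows, 14 of 46 sham and 2 of 29 PHx regions were distal. In the whole lists 3738 of 11602 sham regions and 2505 of 10170 PHx regions were. A wider region reaches a listed TSS more easily, and the part of width in these counts was not tested. In the windows 3 sham distal regions had no overlap after PHx: the pair upstream of Ccnd1 and 1 in an intron of Piezo1. Neither distal PHx region was without overlap in sham, and 37.6% of the 2505 distal PHx regions in the whole list were. With 2 regions here, no difference from that share can be read. The remaining 11 sham distal regions were each overlapped by a PHx region.

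Of 90 further genes of the same pathway in 5 lists, 30 had a listed TSS and 60 had none. A TSS is listed only for a gene that the authors named for a region of either group. Having a region is thus close to the condition for entry, here as for all protein-coding genes counted. Of the 30 genes, 21 (70.0%) were marked in both groups. PHx alone had 3, sham alone had 2, and 4 were unmarked (Cdk6, Tfdp1, Gins2 and Rfc1, named after their values were seen). The share marked in both groups lay near the 66.0% of all protein-coding genes. The counts in the other states are too small to be set apart from the genome's shares. At all 5 genes marked in a single group, 1 or both libraries of the opposite group left a peak number unused around the TSS. That was the usual case. Only 10.2% of all PHx-only and 14.5% of all sham-only genes lay in stretches without such a number. Of the 21, 9 had a region at least 2-fold wider after PHx and 0 had a narrower one, beside 40.0% and 8.63% of all genes marked in both. Their median ratio was 1.88 beside 1.72 for all such genes. Of the 21, only E2f8 and Fen1 had a PHx region over 3 or more sham regions, beside 9.01% of all genes marked in both.

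Among cyclins, kinases and their inhibitors 7 of 8 genes were marked in both groups. The inhibitor genes Cdkn2d, which encodes p19, and Cdkn1c, which encodes p57, had the largest ratios, with 6713 and 29092 bp at the first and 10089 and 32915 bp at the second. Cdkn1b, which encodes p27, had 10241 and 11060 bp. In the RB and E2F list 4 of 6 were marked in both. E2f8, an atypical repressor, measured 17994 bp in sham against 64927 bp after PHx, and E2f4 measured 15187 against 46833 bp. Rbl2, which encodes p130, had 4416 and 6276 bp. Tfdp2, a dimer partner of E2F factors, was marked in sham only (4847 bp), with the nearest PHx region 234388 bp away.

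Of 7 licensing and firing genes 4 were marked in both groups, and Cdc45 (12602 bp) and Gins1 (16981 bp), 2 parts of the active helicase, in PHx only. A sham region lay 2793 bp from the Gins1 TSS. The helicase gene Mcm6 had 5586 and 12293 bp and Mcm2 16553 and 30911 bp, and Orc6 of the origin recognition complex had 5196 and 6840 bp. Of 6 polymerase and fork genes 4 were marked in both, and Chaf1a, a histone chaperone subunit, in PHx only (38667 bp) with a sham region 1592 bp away. Fen1, the flap endonuclease, had 7301 bp in sham and a PHx region of 49034 bp over 3 sham regions, Rpa1 had 6141 and 15522 bp, and Pole had 4294 and 4959 bp. Of 3 nucleotide supply genes Dut, the dUTPase, was in sham only (4589 bp), Dck had 3668 and 10297 bp and Shmt1 8413 and 18449 bp.

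**Figure D5:**
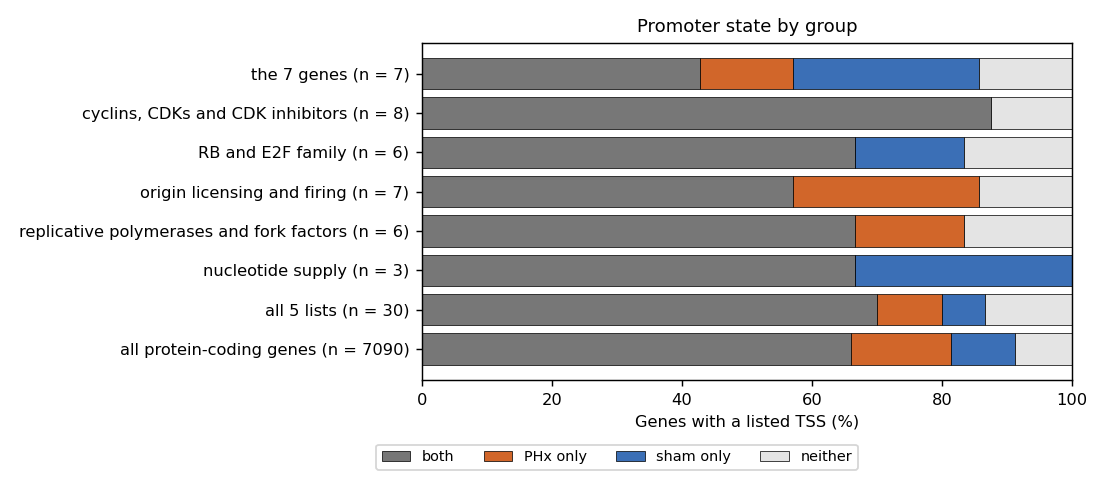
Share of genes with a listed TSS that were marked in both groups, in a single group or in none, for the 7 genes, the 5 lists, all 5 lists together and all protein-coding genes. The 30 list genes show 70.0% marked in both beside 66.0% for all genes.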

How the data were processed

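The tables deposited by the authors, 1 for each group, hold regions. Per the file headers, they give where a region starts and ends, its width in bp, the gene named for it and that transcript's span, with no counts, fold, percent, score or signal. Each region lists the peaks of library 1 and library 2 it was joined from. Per the submitters' processing notes, the tools were Bowtie2, ChIPseeker, DiffBind and SEACR and the builds GRCm39 and mm39; no version or threshold is stated there. A peak found in 1 library only is not listed.

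Where a gene had several listed starts, the one farthest upstream in either table served as its TSS. Regions were compared by any shared base (at least 1 bp) with Python 3.11.15 and pandas 2.3.3, and the code was tested on simulated data. Protein-coding genes came from a RefSeq table of GRCm38.p6, used for names only, in which 265 names found no match. A TSS is listed only for genes that the authors named for a region of either group. Genes without a listed TSS were left out: their state is unknown. All 7 members and every gene of a list marked in 1 group only were named, with the 2 largest ratios and the smallest. The members and lists were chosen with earlier results of these data known.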

Additional observations from a re-analysis of the deposited data

How the results depend on the processing

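The depth behind the regions is unknown. Leaving out a replicate was not run because the tables give no coordinates per library. No paired analysis was possible because each table holds 1 merged list per group and no values per library. The marked counts of the 7 genes (5 in sham, 4 after PHx) were 4 and 1 by the authors' own gene assignment, 4 and 3 without calls of 1 group that faced unused peak numbers (Cdk2 and E2f1 then counted as unmarked), and 5 and 4 under the other settings run. A pair of settings was chosen after seeing the data: dropping calls of 1 group where the other had unused peak numbers, and the ratio over the sham length inside the PHx region. Under the first, Pola2 alone of the members kept a call in 1 group.

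For the 30 list genes, PHx only went from 3 to 1 with TSS ± 3 kb. The authors' assignment put 7 in sham only. Without regions below the lower quartile of width PHx alone had 5, sham alone 0, and 10 were unmarked. Without calls that faced unused numbers PHx alone had 0, sham alone 0, and 9 were unmarked.

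Divided by the median ratio of protein-coding genes marked in both groups, the width ratios of Ccnd1, E2f2 and Cdt1 were 0.543, 3.89 and 4.54. As length covered within 10 kb of the TSS they were 0.774, 1.81 and 1.51. The value of Ccnd1 could not pass 1 there, since sham regions filled that window. Over the sham length inside the PHx region the width ratios were 1.10, 1.71 and 2.38. The median of this measure over protein-coding genes marked in both groups was 1.44 (quartiles 1.19 and 1.87). This setting cannot go below 1, so the turn at Ccnd1 comes from its construction.

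A window of 50 kb held 26 sham regions, 3 of them without a PHx overlap, and 17 PHx regions. With a reciprocal overlap of 50%, 31 sham and 14 PHx regions, and 11 distal sham regions, had no partner. Over 10 kb from any listed TSS there were 9 distal sham regions and 1 distal PHx region.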
